A study of Ipomoea batatas with 12 samples.

Results

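CRD1 encodes the magnesium-protoporphyrin IX monomethyl ester cyclase of the chloroplast. Of the 50592 gene loci listed in the deposited tables, 3 are named CRD1 in the study's supplementary tables, G16398, G16412 and G14909, and all 3 were taken. Expression was measured by RNA-seq in 12 libraries of sweetpotato (Ipomoea batatas) cultivar Xuzishu 8, a purple-fleshed storage root crop. The 4 groups of 3 libraries were heat (HT), drought imposed with polyethylene glycol in the nutrient solution (DR), drought with heat (DH) and unstressed plants (CK). All plants were raised in the field and moved to hydroponic Hoagland solution before treatment. Each library held RNA of leaves and tuberous roots, mixed in equal amounts over all times of sampling, so neither organ nor time can be read separately. The chamber of the CK plants was a separate one, so the chamber and a stress cannot be told apart in comparisons with CK. This also touches the heat main effect, which takes in CK. The study's methods do not say whether DR plants and heated plants shared a chamber. The study's methods state 3 biological replications at sampling, but the sources used here do not say how these entered the 3 pools of a group, so the p-values describe only how far these libraries differ.

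Chlorophyll is built in the chloroplast from protoporphyrin IX, a precursor it shares with heme. Mg-chelatase, with its large subunit CHLH and its activator GUN4, inserts magnesium, a methyl group is added, and the cyclase then closes the additional ring that separates chlorophylls from other tetrapyrroles. The cyclase is a membrane enzyme with a diiron centre, and plants that lack enough of it are pale and accumulate its substrate. Breakdown of chlorophyll runs through pheophorbide a, whose ring is opened by pheophorbide a oxygenase (PAO). These steps take place in plastids and are most active in green tissue. In the pooled RNA, fewer green cells, a smaller share of leaf RNA and less CRD1 RNA per cell cannot be told apart.

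CRD1 RNA was far lower in the heated libraries (HT and DH) than in the unheated libraries (DR and CK), and this held for each of the 3 copies. G16398 and G16412 together provided nearly all CRD1 RNA, and G14909 was a low copy throughout. Values are FPKM, fragment counts scaled to transcript length and library size, which allow levels to be compared between genes of different length. G16398 reached 273, 48.8 and 178 FPKM in HT libraries, 687, 888 and 1718 FPKM in DR libraries, 44.1, 15.8 and 286 FPKM in DH libraries, and 3504, 1211 and 533 FPKM in CK libraries. Every heated library lay below every unheated one, and DR lay inside the wide range of CK. The G16398 mean was 167 ± 113 FPKM in HT, 1098 ± 547 FPKM in DR, 115 ± 148 FPKM in DH and 1749 ± 1557 FPKM in CK (SD, n = 3 each).

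G16412 followed the same order of groups at a lower level. It had 84.1, 20 and 70.8 FPKM in HT libraries, 274, 361 and 651 FPKM in DR libraries, 15.2, 7.38 and 130 FPKM in DH libraries, and 1202, 569 and 510 FPKM in CK libraries. The HT and DH ranges overlapped, as did those of DR and CK, and the highest heated library, DH3, was below the lowest unheated one, DR1. The G16412 mean was 58.3 ± 33.8 FPKM in HT, 429 ± 197 FPKM in DR, 50.7 ± 68.4 FPKM in DH and 760 ± 384 FPKM in CK (SD, n = 3 each).

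G14909 was barely detected in heated plants. It had 0.14 FPKM in HT1 and was listed at 0 in HT2 and HT3, it had 4.23, 3.40 and 12.5 FPKM in DR libraries, it had 0.27 and 0.40 FPKM in DH1 and DH3 and was listed at 0 in DH2, and it had 8.66, 2.31 and 6.62 FPKM in CK libraries. The 6 heated libraries again lay below the 6 unheated ones without overlap, while HT and DH overlapped and DR and CK overlapped. A listed 0 can be a failed estimate in a table without counts, so no fold change in FPKM is given for this copy.

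**Figure D1:**
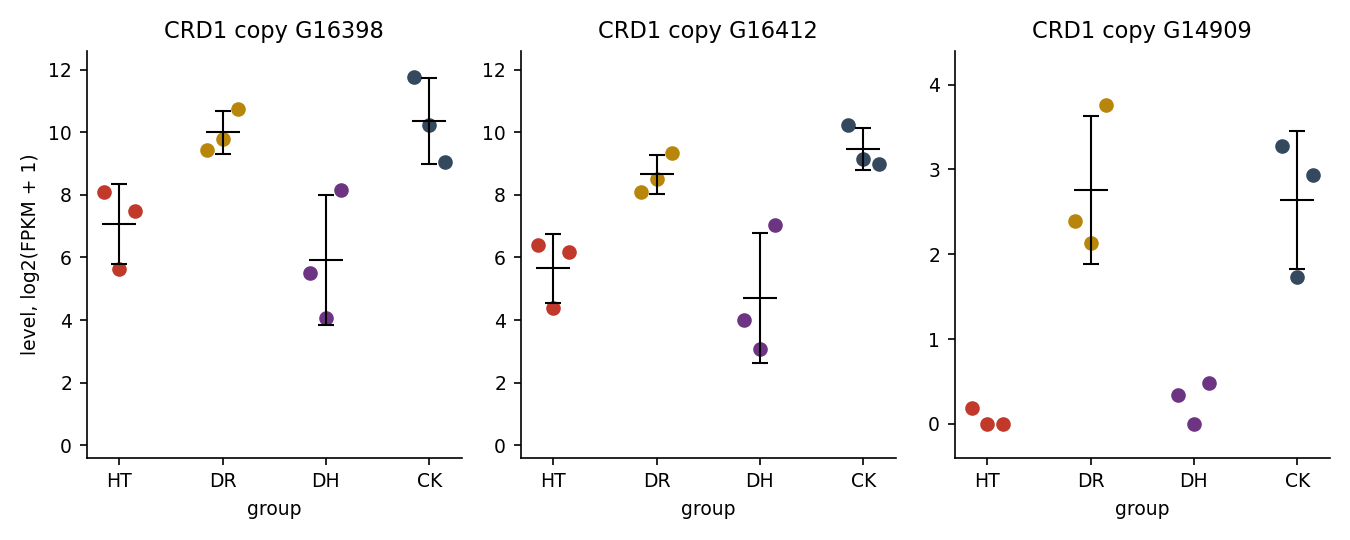
Level of each CRD1 copy, as log2(FPKM + 1), in the 4 groups. Points are the 3 libraries of a group, and the bar and whiskers give the mean and SD on that scale, left out for groups with a library listed at 0. The HT and DH points lie below all DR and CK points in each panel, from 15.8 to 286 FPKM against 533 to 3504 FPKM for G16398. The axis of G14909 is shorter than the other 2.

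Ordered from the lowest group mean, both abundant copies ran DH, HT, DR, CK, and the only neighbours in that order whose ranges did not overlap were HT and DR. For G14909 the order was HT, DH, CK, DR, with the one gap between DH and CK. Over the 6 libraries of each kind, G16398 averaged 141 FPKM when heated and 1424 FPKM when unheated, a ratio of 10.1 of unheated over heated. The G16412 mean was 54.5 FPKM in heated and 594 FPKM in unheated libraries, a ratio of 10.9. Among genes tested and listed in all libraries, 0.589% showed such a separation (66 of 11208, every heated library below every unheated one), and all 3 copies were among them. For HT below CK without overlap the share was 4.84%, and for DH below CK it was 11.7%, with all 3 copies in both. The study's tables name all 3 copies as lowered under DH in these same libraries, so their place in these sets is not independent evidence.

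In CK, the abundant copies stood among the most abundant transcripts of the pooled RNA. G16398 lay above 98.6% to 99.6% of the tested genes in CK libraries and above 88.1% to 98.2% in DH libraries. G16412 lay above 98.6% to 99.2% in CK libraries and above 77.5% to 96.8% in DH libraries. G14909 lay above 64.0% to 71.5% of the tested genes in CK libraries and at most 27.7% in DH libraries. For all 3 copies every heated library ranked below every unheated one, narrowly for the abundant copies. The nearest were DH3 at 98.2% and CK3 at 98.6% for G16398, and DH3 at 96.8% and DR1 at 97.0% for G16412. For G14909 they were DH3 at 27.7% and DR1 at 56.0%. A rank within a library is untouched by any rescaling of that library, but depends on the other genes in it.

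Differences between groups were tested with limma on log2(FPKM + 1), a scale that understates the change of a low gene such as G14909, over 12295 genes with at least 1 FPKM in at least 3 libraries. A gene was called where its Benjamini-Hochberg adjusted p was under 0.05 and its log2 fold change went beyond 1 in either direction. The tables that name the 3 copies list all of them as lowered under DH, and G16412 and G14909 also as lowered under HT, in the same 12 libraries, so the direction against CK is not independent evidence. In the heat main effect, the mean of HT less CK and DH less DR, all 3 copies were called lowered, in a comparison that called 0.325% of the tested genes lowered. G14909 reached 1 FPKM only in DR and CK libraries. It thus passed the filter through the groups where it was high, and its tests of heat add no independent support. The log2 fold change was -3.68 (SE 0.78, limma adjusted p = 0.0298) for G16398, -3.88 (SE 0.74, limma adjusted p = 0.0151) for G16412 and -2.53 (SE 0.55, limma adjusted p = 0.0320) for G14909. An exact two-sided permutation test, with heat exchanged within treated and within untreated libraries, gave p = 0.005 for each copy, the smallest that its 400 arrangements allow, and an adjusted p of 0.010 over 6 tests.

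The heat effect kept its sign with any 1 library left out, while its limma call did not always hold. Leaving out each library in turn gave log2 fold changes from -4.25 to -3.22 for G16398, from -4.46 to -3.47 for G16412 and from -2.76 to -2.28 for G14909. The G14909 value also rests on the pseudocount, and was -4.86 with 0.1 in place of 1. The limma call of G16412 was lost without DR3 (adjusted p = 0.0755). That of G16398 was lost without CK2 (adjusted p = 0.0708), DR2 (0.0545), DR3 (0.137), DH1 (0.0787) or DH2 (0.0759). That of G14909 was lost without HT1 (adjusted p = 0.0812), HT2 (0.0514), HT3 (0.0584), DR3 (0.129), DH1 (0.0855), DH2 (0.1) or DH3 (0.0795). Without the filter on low values no copy was called, at adjusted p = 0.438 for G16398, 0.285 for G16412 and 0.110 for G14909.

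DH against CK addressed the combined stress. G16398 fell by 4.45 (log2, SE 1.10, limma adjusted p = 0.0387) and G16412 fell by 4.76 (SE 1.05, limma adjusted p = 0.0178), 2 of 3 copies, where 0.968% of tested genes were called lowered. G14909 was at -2.37 (SE 0.78, limma adjusted p = 0.149). In linear FPKM the CK mean was 15.2 times the DH mean for G16398 and 15.0 times for G16412. The G16398 call was lost without CK1 (adjusted p = 0.0811), CK2 (0.118), DR2 (0.0513), DR3 (0.0553), DH1 (0.170) or DH2 (0.181), and that of G16412 without CK2 (0.0644), DH1 (0.107) or DH2 (0.0976). The DH libraries were unequal, with 286 FPKM of G16398 in DH3 and 15.8 FPKM in DH2.

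HT against CK, which set heat without PEG, in another chamber, against unstressed plants, gave falls of a like size that did not pass the adjusted threshold. The log2 fold change was -3.28 (SE 1.10, limma adjusted p = 0.168) for G16398, -3.80 (SE 1.05, limma adjusted p = 0.0813) for G16412 and -2.58 (SE 0.78, limma adjusted p = 0.116) for G14909. None of the 3 was called by limma against 0.472% of all tested genes. All 3 were lower at an unadjusted p under 0.05, as were 585 of the 12295 tested genes. The median log2 fold change over all tested genes was 0.30 in HT against CK and -0.37 in DH against CK. Several rescalings of the libraries, and the pairing by replicate number, brought G16412 or G14909 past the threshold in HT. Over all 10 alternatives besides leaving out a library, the limma adjusted p ran between 0.0280 and 0.473 for G16412 and between 0.0374 and 0.227 for G14909, highest for both with no filter on low values.

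DR against CK was not called for any copy. The log2 fold change was -0.37 (SE 1.10) for G16398, -0.81 (SE 1.05) for G16412 and 0.12 (SE 0.78) for G14909, each with a limma adjusted p of 1 and none with an unadjusted p under 0.05, against a background of 0.195% called lowered. With standard errors of this size an equal level in DR and CK was not shown. The drought main effect was -0.77 (SE 0.78) for G16398, -0.88 (SE 0.74) for G16412 and 0.17 (SE 0.55) for G14909 (limma adjusted p = 0.862, 0.853 and 0.960), where 0.00813% of the tested genes were called lowered. The exact permutation test of PEG-treated against untreated libraries gave p = 0.35 for G16398, 0.205 for G16412 and 0.65 for G14909 (adjusted 0.42, 0.308 and 0.65).

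Adding drought to heat changed no copy detectably. DH against HT gave -1.16 (SE 1.10), -0.95 (SE 1.05) and 0.21 (SE 0.78) in the order G16398, G16412, G14909 (limma adjusted p = 0.778, 0.789 and 0.940), and 0% of the tested genes were called lowered, although 541 had an unadjusted p under 0.05. Adding heat to drought, DH against DR, gave -4.08 (SE 1.10), -3.95 (SE 1.05) and -2.48 (SE 0.78) in the same order (limma adjusted p = 0.415, 0.388 and 0.744), in a comparison that called 0.0407%. All 3 were lower at an unadjusted p under 0.05 there, as were 405 of the 12295 tested genes. HT against DR gave -2.92 (SE 1.10), -2.99 (SE 1.05) and -2.70 (SE 0.78) (limma adjusted p = 0.641, 0.598 and 0.414), with 0.0488% called lowered.

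Whether heat acted differently with and without PEG was tested as the heat by drought term. It was -0.80 (SE 1.56) for G16398, -0.14 (SE 1.48) for G16412 and 0.10 (SE 1.11) for G14909, with limma adjusted p = 0.931, 0.988 and 0.988. No gene of the whole table was called in this term (0% lowered), although 565 had a negative term at an unadjusted p under 0.05. The term has the largest errors of the fit, and its sign turned with the scaling of the libraries for both abundant copies.

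**Figure D2:**
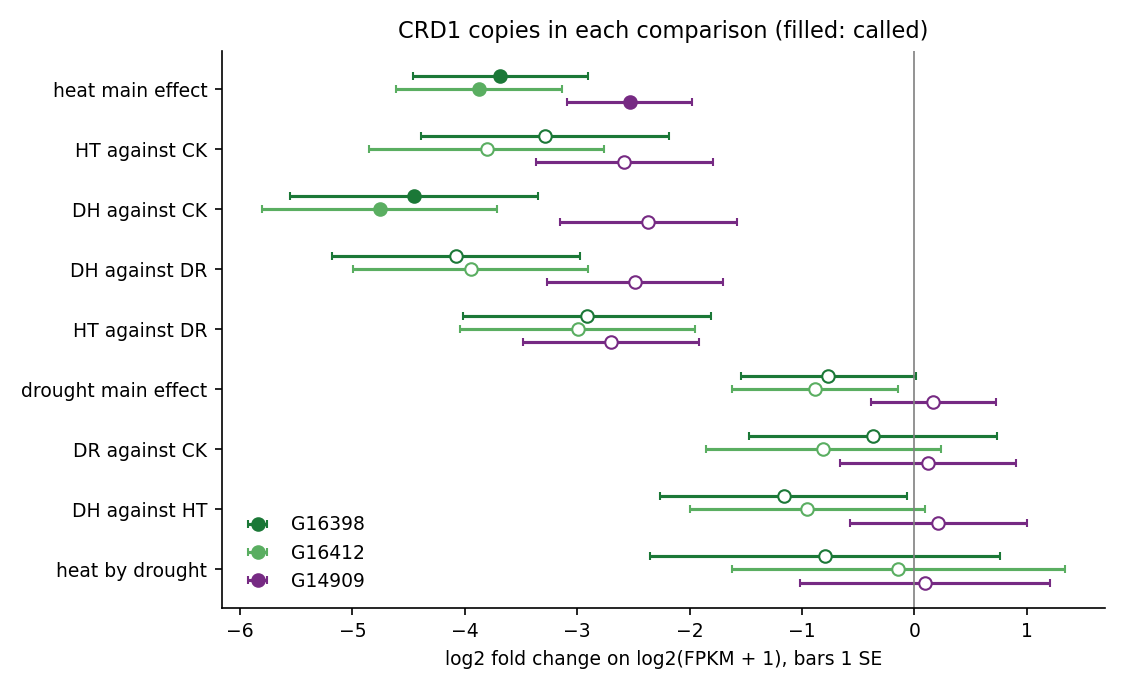
Log2 fold change of each CRD1 copy in 9 comparisons, on log2(FPKM + 1), with bars of 1 SE. Filled points passed the limma threshold: all 3 copies in the heat main effect (-3.68, -3.88 and -2.53) and G16398 and G16412 in DH against CK. The 5 comparisons of heated with unheated libraries lie below 0 for every copy. In the other 4 no point was called, with values from -1.16 to -0.14 for the abundant copies and from 0.10 to 0.21 for G14909.

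The abundant copies kept similar proportions in 11 of the 12 libraries, CK3 being the exception. The summed CRD1 level was 358, 68.8 and 249 FPKM in HT libraries, 965, 1252 and 2382 FPKM in DR libraries, 59.5, 23.2 and 416 FPKM in DH libraries, and 4715, 1782 and 1049 FPKM in CK libraries. Within this sum G16398 made up 70.9% to 76.4% in HT, 70.9% to 72.1% in DR, 68.2% to 74.1% in DH and 50.8% to 74.3% in CK. G16412 supplied the rest but for at most 0.631%, the share of G14909 in CK3.

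The ratio of G16398 to G16412 lay between 2.44 and 3.25 in HT, between 2.46 and 2.64 in DR, between 2.14 and 2.91 in DH and between 1.05 and 2.92 in CK. CK3, with nearly equal levels of both copies (533 and 510 FPKM), was the one library that left the narrow band. This library also had the most genes above 0 (33410) and the highest summed level of the storage root starch genes described below. Whether the copies changed unequally was tested on the difference of their log2(FPKM + 1) inside each library, called their log2 ratio here. Over 9 exact permutation tests of a stress against CK, with 20 arrangements and a smallest possible p of 0.1, no test could pass the threshold, and p ranged from 0.2 to 0.8 (adjusted 0.6 to 0.8). The log2 ratio of G16398 to G16412 less that in CK was 0.52 in HT, 0.44 in DR and 0.31 in DH, with ranges that overlapped those of CK. The log2 ratios of the abundant copies to G14909 differed from CK by -2.39 to -0.49 over the stresses, and with a pseudocount of 0.1 in place of 1 the values were 1.99 and 1.45 in HT and -0.18 and -0.54 in DH for G16398 and G16412.

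Libraries high in G16398 were also high in G16412. Since heated and unheated libraries form separate ranges, the correlation of log2(FPKM + 1) was taken within each kind. In the 6 heated libraries Pearson's r of G16398 and G16412 was 0.990 (exact permutation p = 0.00139, adjusted 0.00833 over 6 correlations) and Spearman's rho was 1 (exact permutation p = 0.00278, adjusted 0.0167). Without DH2 and DH3, the libraries farthest from the median, r was 0.991 over the other 4. In the 6 unheated libraries r was 0.843 (exact permutation p = 0.0389, adjusted 0.117) and rho 0.829 (exact permutation p = 0.0583, adjusted 0.175), and r was 0.973 without CK1 and CK3.

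G14909 showed no such close relation. Its r was 0.443 with G16398 and 0.445 with G16412 in heated libraries, and 0.442 and 0.534 in unheated libraries, with rho of 0.516 and 0.516 when heated and 0.371 and 0.543 when unheated. The exact permutation p of r ran from 0.272 to 0.383 (adjusted 0.383) and that of rho from 0.297 to 0.497 (adjusted 0.4 to 0.497), and the heated values turned to -0.21 and -0.34 without DH2 and DH3. Copies of one gene can share reads, and how reads that fit both abundant copies were assigned is not given in the sources used here, so the level of either alone and their close relation are uncertain to that extent.

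**Figure D3:**
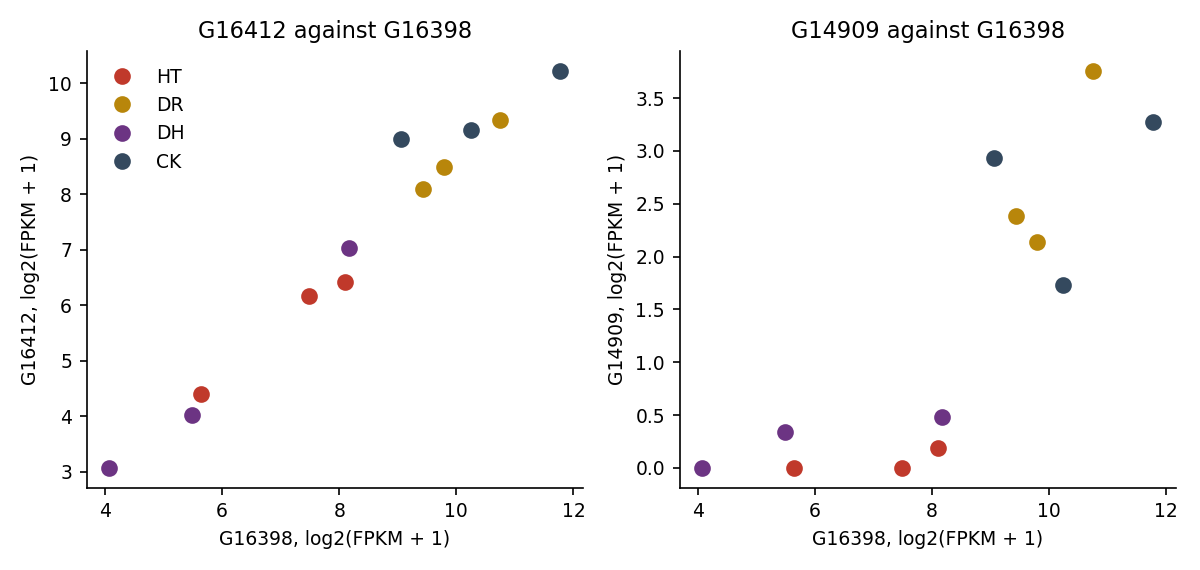
Level of G16412 (left) and G14909 (right) against G16398, as log2(FPKM + 1) on both axes, with 1 point per library coloured by group. G16412 runs along G16398 over the whole range (r = 0.990 in the 6 heated and 0.843 in the 6 unheated libraries), with CK3 above the line. G14909 falls into a heated set near 0 and an unheated set from 2.31 to 12.5 FPKM.

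Of the other genes of chlorophyll synthesis in the study's tables, limma called none in any of the 9 comparisons (0 of 3). All 3 were lower at an unadjusted p under 0.05 in the heat main effect and in DH against CK. At that level 952 and 986 of the 12295 tested genes were lower in these comparisons. The 3 loci, too, came from tables of genes listed as lowered under DH in these libraries. GUN4 (MSTRG.41460), which binds the porphyrin and activates Mg-chelatase, had 37.6, 8.63 and 15.1 FPKM in HT, 23.1 and 109 FPKM in DR1 and DR3, 26.0, 3.73 and 18.6 FPKM in DH, and 282, 157 and 137 FPKM in CK. All CK libraries stood above all others listed for GUN4, DR1 and DR3 included, while DR and CK overlapped for CRD1. How many of all tested genes show such a separation was not counted. In DR against CK GUN4 was at -1.83 (SE 1.11, limma adjusted p = 0.926), on 2 DR libraries. The GUN4 heat main effect was -2.63 (SE 0.75, limma adjusted p = 0.115, DR2 not listed and left out of its fit).

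CHLH, the subunit of Mg-chelatase that holds the porphyrin, was listed as 2 loci. G26280 was listed at 0, 0 and 0.71 FPKM in HT, had 2.66, 2.12 and 23.7 FPKM in DR, was at 0.17, 0 and 0 FPKM in DH, and had 9.45, 3.57 and 2.37 FPKM in CK. Its heated libraries lay below its unheated ones, as those of CRD1 did, a separation shown by 0.589% of tested genes listed in all libraries. Its heat main effect was -2.41 (SE 0.60, limma adjusted p = 0.0695). Like G14909, G26280 reached 1 FPKM only in DR and CK libraries. It thus passed the filter through the groups where it was high, and its values add no independent support. The locus MSTRG.39941 had a heat main effect of -1.92 (SE 0.61, limma adjusted p = 0.171), also fitted without DR2. Of its heated libraries only HT3 reached 1 FPKM (1.77 FPKM). The median heat main effect was -2.41 over these 3 loci, -3.68 over the CRD1 copies and -0.09 over all tested genes. The log2(FPKM + 1) scale understates the change of the low CHLH loci. These medians therefore do not show that CHLH fell less than CRD1.

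PAO, which opens the chlorophyll ring in senescing leaves, ran the other way without being called by limma (0 of 2 loci in any comparison). Both loci were higher at an unadjusted p under 0.05 in DR and in DH against CK. At that level 516 and 441 of the 12295 tested genes were higher in these comparisons. G37418 had 26.7, 132 and 64.7 FPKM in HT, 148, 26.2 and 54.5 FPKM in DR, 135, 57.6 and 108 FPKM in DH, and 14.8, 4.30 and 8.53 FPKM in CK, so every stressed library exceeded every CK library. Its difference in DH against CK was 3.36 (log2, SE 0.96, limma adjusted p = 0.0815), and that of G37287 was 2.80 (SE 0.95, limma adjusted p = 0.162). G37287 had 5.94, 62.9 and 18.5 FPKM in HT, 52.2, 37.5 and 48.4 FPKM in DR, 50.4, 22.9 and 77.5 FPKM in DH, and 3.77, 4.78 and 9.27 FPKM in CK, so HT1 lay inside its CK range while all DR and DH libraries lay above it. How many of all tested genes separate from CK in these ways was not counted. Of 4 further loci that the tables place under porphyrin terms or beside PAO, limma called none in any comparison. In DH against CK 3 had an unadjusted p under 0.05, where 986 of the 12295 tested genes were lower and 441 higher at that level. The heat main effects of the 4 loci were -1.59 for the chloroplast RNA-binding protein CSP41A (G36681), -1.36 for the plastid desaturase FAD6 (G37809), and 0.70 and 1.41 for the CGLD27 loci G334 and G46403.

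**Figure D4:**
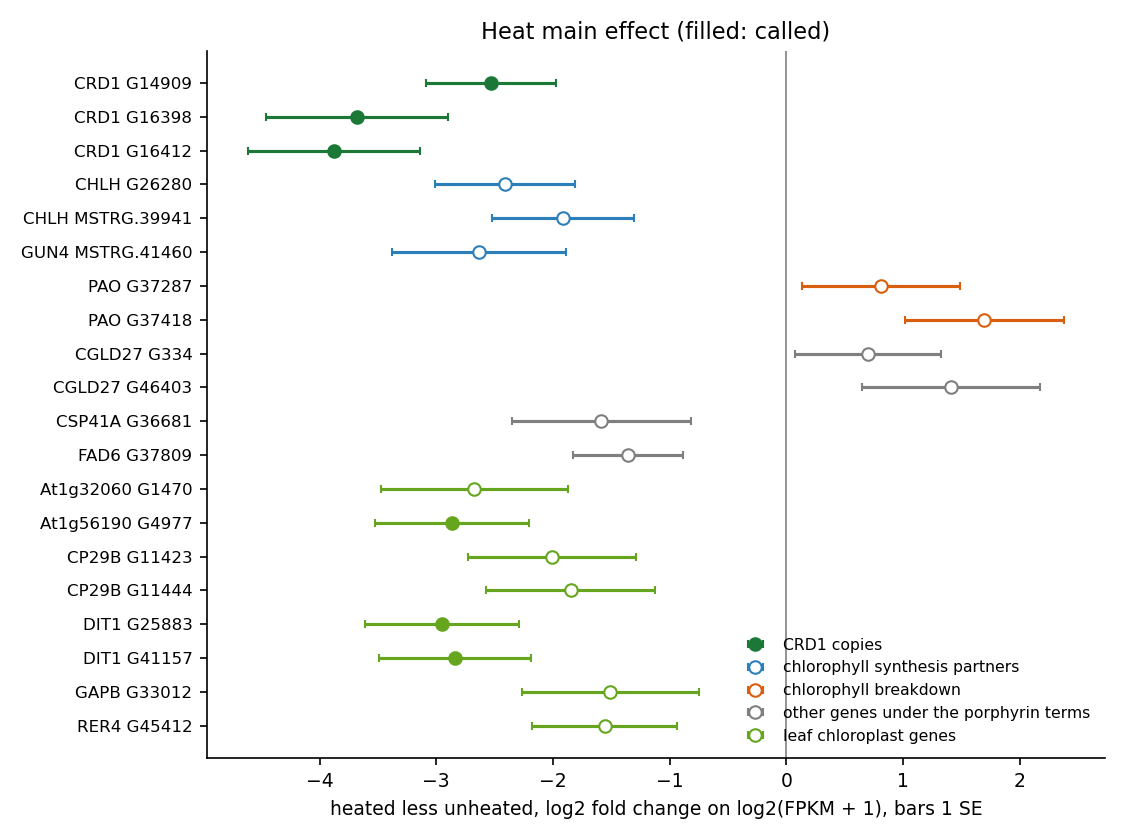
Heat main effect, the log2 fold change of heated less unheated libraries on log2(FPKM + 1) with bars of 1 SE, for the CRD1 copies, other genes of chlorophyll metabolism and leaf chloroplast genes. Filled points passed the limma threshold. The 3 CRD1 copies and 3 of 8 leaf chloroplast genes were called lowered, the CHLH and GUN4 loci lay between -2.63 and -1.92 without being called, and both PAO loci lay above 0.

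The summed level of leaf chloroplast genes was lower in every heated library than in every unheated one, as that of CRD1 was. The 8 leaf chloroplast loci, also taken from the study's tables of changed genes, summed to 98.8 to 167 FPKM in HT, 241 to 862 FPKM in DR, 27.5 to 183 FPKM in DH and 702 to 3529 FPKM in CK. All 8 had a heat main effect below 0 (median -2.34), and 3 of 8 were called lowered by limma, where 0.325% of all tested genes were: both DIT1 loci (G25883 at -2.95 and G41157 at -2.84), which encode a dicarboxylate transporter of the chloroplast envelope, and At1g56190 (G4977 at -2.87), a plastid phosphoglycerate kinase. In HT against CK and in DH against CK the 2 DIT1 loci were called, against 0.472% and 0.968% of all tested genes. Both were also low in DR against CK, without a call (G25883 at -3.37, SE 0.93, and G41157 at -3.34, SE 0.92). There the CRD1 copies G16398, G16412 and G14909 were at -0.37, -0.81 and 0.12, and At1g56190 at -0.17. Against DR, G25883 and G41157 were at -0.71 and -0.52 in HT and at -1.82 and -1.83 in DH, none called. Of the single loci, only At1g56190 had every heated library below every unheated one. The others overlapped: GAPB (G33012) had 17.3 FPKM in HT3 and 1.76 FPKM in CK3, and DIT1 (G25883) had 20.5 FPKM in HT1 and 12.4 FPKM in DR1. The part of a changed leaf share in the CRD1 result was not tested.

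The 6 storage root starch genes summed to 1.93 to 20.3 FPKM in HT, 6.59 to 45.6 FPKM in DR, 0.56 to 28.8 FPKM in DH and 33.9 to 1764 FPKM in CK, with the highest sum in CK3. Only 3 of them passed the filter on low values. Of these 1, the beta-amylase BMY1 (G48653), was called lowered in DH against CK (limma adjusted p = 0.0442), where 0.968% of all tested genes were. None was called lowered in the heat main effect, where 0.325% of all tested genes were. The starch sums of the HT and DH libraries lay below all CK sums, and the DR range overlapped those of the other groups. Heat shock genes were called raised for 6 of 7 loci in HT, 1 of 7 in DR and 2 of 7 in DH against CK, where 0.569%, 0.586% and 0.577% of all tested genes were called raised. These loci, too, were taken from the study's tables of genes changed in the same libraries, so they are no independent check of the labels. The chloroplast small heat shock protein HSP21 (MSTRG.27569) reached 49.1 to 720 FPKM in HT and 86.9 to 833 FPKM in DH, against at most 1.13 FPKM in CK, while DR1 and DR3 held 72.1 and 422 FPKM of it and DR2 gave no value.

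Genes whose pattern over the 12 libraries was most like that of each copy were sought among 160 tested genes with a name in the study's tables. Likeness was Pearson's r of log2(FPKM + 1) and is a description, since all values come from the same 12 libraries and group differences enter into r. For G16398 the closest was At1g32060 (G1470), phosphoribulokinase of the Calvin cycle, at r = 0.933, an r that 2 of 11205 compared genes reached. Once group means were taken out it was 0.873. The others were the locus named coq-5 (G13706, r = 0.919), the ammonium transporter AMT1-2 (G24043, 0.897), the chloroplast ribonucleoprotein CP29B (G11423, 0.876) and At1g56190 (0.832).

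The phosphoribulokinase locus had 83.3, 60.4 and 94.0 FPKM in HT, 177, 174 and 649 FPKM in DR, 28.9, 13.0 and 145 FPKM in DH, and 2353, 463 and 90.3 FPKM in CK. CK3 was low for it, below HT3, so its heat groups overlapped where those of CRD1 did not. G16412 shared 4 of its 5 closest genes with G16398, namely coq-5 (r = 0.899), At1g32060 (0.890), At1g56190 (0.853) and AMT1-2 (0.844), and the fifth was DIT1 (G25883, 0.838).

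For G14909 the closest gene was At1g56190 at r = 0.972, which no other of the 11205 compared genes reached, and r was 0.910 after group means were taken out. It had 0.76, 0.15 and 1.02 FPKM in HT, 5.04, 5.47 and 44.4 FPKM in DR, 1.83, 0.22 and 1.12 FPKM in DH, and 22.1, 6.41 and 13.8 FPKM in CK. Like G14909 it was highest in DR3. CHLH (G26280) followed at r = 0.923, then coq-5 (0.870), At5g28840 (G165, 0.818), an epimerase of ascorbate synthesis, and ABCC4 (G10938, 0.818), an ABC transporter.

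Libraries differed in ways the groups do not explain. The sum of FPKM lay between 1088868 and 1472561 per library, the 10 most abundant genes took 34.7% (HT1) to 89.7% (DH2) of it, and 13653 (DH2) to 33410 (CK3) genes were above 0. DR2 listed 49073 genes, among them all 3 CRD1 copies. DH2 held the lowest value of both abundant copies and was the library most taken up by a few genes. With libraries rescaled without their 10 most abundant genes, the heat main effect was -3.40 for G16398, -3.60 for G16412 and -2.48 for G14909, all still called by limma. No sequencing batch or date is given in the labels used here.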

How the data were processed

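RNA-seq of 12 pooled leaf and tuberous root samples (HT, DR, DH and CK, 3 each, grouped by sample title) was used. The labels list cutadapt 1.9, HISAT2 2.0.4 and StringTie 1.3.4d, and the study's methods name Trimmomatic for trimming; which was applied cannot be told apart. The authors deposited FPKM per gene and library, corrected for transcript length and library size. Reads could not be recovered from them, so the depth behind a value is unknown and no counting interval is given. DESeq2 and edgeR, which the labels list, served the authors' tests and were not used here. Gene names came from the study's supplementary tables, which name 228 listed loci. The version of the genome annotation is not given in the sources used here, and no coordinates or sequences are given.

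All libraries were fitted together with limma 3.58.1 (R 4.3.3; moderated two-sided test with an intensity trend) on log2(FPKM + 1). A gene entered if 3 or more libraries reached an FPKM of 1 (12295 genes, 1087 of them without a DR2 value and fitted on the others). The Benjamini-Hochberg adjustment ran over all tested genes. Exact permutation tests, correlations and figures used Python 3.11.15, numpy 2.4.6, pandas 2.3.3 and scipy 1.17.1. The fit was tested on simulated data. The text names the CRD1 copies, loci of lists taken from the study's tables, and for each copy the 5 named genes with the highest r. The members and lists were chosen with earlier results of these data known. Alternatives were another pseudocount, other filters and scalings, fits of only the groups compared, a replicate block, array weights and each library left out. The proteome was not analysed here.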

Additional observations from a re-analysis of the deposited data

How the results depend on the processing

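All values are log2 fold changes. The heat main effect stayed below 0 for all 3 copies under these settings, between -3.80 and -2.93 for G16398, between -4.00 and -3.03 for G16412 and between -4.86 (pseudocount of 0.1) and -2.18 for G14909. Its limma call was lost with no filter on low values (-3.68 for G16398, -3.88 for G16412, -2.53 for G14909), a setting that tests more genes. In DH against CK the call was lost with no filter (-4.45 for G16398, -4.76 for G16412), in a fit of only the groups compared, with fewer libraries (-4.45 and -4.76), and for G16398 with upper-quartile scaling (-4.05) and with scaling without the 10 most abundant genes (-3.71), while array weights called G14909 (-1.51). In HT against CK a call was gained for G14909 with a pseudocount of 0.1 (-5.28), upper-quartile (-2.67), quantile (-2.62) and median-of-ratios scaling (-2.70), and for G16412 with upper-quartile (-4.52), quantile (-4.16) and median-of-ratios scaling (-4.39), scaling without the 10 most abundant genes (-3.88) and array weights (-3.55). In DH against DR array weights called G14909 (-2.53). The causes of these changes were not tested.

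Uncalled values changed sign as follows. DR against CK for G14909 was -0.0545 with median-of-ratios scaling. With array weights the drought main effect was 0.0694 for G16398 and 0.11 for G16412, DH against HT was 0.29 and 0.63 for the same copies, and heat by drought was -0.71 for G14909, 0.43 for G16398 and 1.04 for G16412. Upper-quartile scaling gave 0.14 for G16412 in DH against HT, and in heat by drought 0.40 for G16398 and 1.04 for G16412. Heat by drought was 0.33 for G16398 and 0.97 for G16412 with median-of-ratios scaling, and for G16412 it was 0.88 with quantile scaling and 0.55 without the 10 most abundant genes. The log2 ratio in HT against CK was 1.99 for G16398 and 1.45 for G16412, each over G14909, with a pseudocount of 0.1.

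Leaving out 1 library at a time gave -4.25 to -3.22 (G16398), -4.46 to -3.47 (G16412) and -2.76 to -2.28 (G14909) for the heat main effect, and -5.58 to -3.53 (G16398) and -5.92 to -3.94 (G16412) for DH against CK. Signs changed within -0.38 to 0.43 (G14909) and -1.02 to 0.34 (G16398) for DR against CK, within -0.0835 to 0.32 (G14909) for the drought main effect, within -0.28 to 0.55 (G14909) and -1.38 to 0.00843 (G16398) for PEG-treated against untreated libraries, within -0.22 to 0.59 (G14909), -1.92 to 0.12 (G16398) and -1.31 to 0.68 (G16412) for heat by drought, and within -0.11 to 0.63 for the ratio of G16398 to G16412 in DH against CK.

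Same-numbered libraries deviated together in 10 of 18 pairs (r over 0.1). Differently numbered pairs were not compared, so whether the numbers pair the samples is not known. A replicate block gave the same fold changes, called G14909 (-2.58) and G16412 (-3.80) in HT against CK, and raised the number of genes called lowered in the heat main effect to 113, against 40 without it. That number ran between 1 (no filter) and 447 (array weights) over the settings, and between 3 and 121 with 1 library left out. The numbers lowered ran between 3 and 232 for HT, 2 and 249 for DR and 16 and 1264 for DH against CK, where the fit as described gave 58, 24 and 119. The split of lowered and raised genes was 58 and 70 in HT, 24 and 72 in DR, 119 and 71 in DH and 40 and 20 in the heat main effect. It was 171 and 66 with upper-quartile scaling in HT, 59 and 97 with median-of-ratios scaling in DR, 115 and 234 in DH and 84 and 134 in the heat main effect without the 10 most abundant genes. The median of all tested genes in HT against CK was 0.30, and -0.09 with upper-quartile scaling.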
